A study of Homo sapiens with 18 samples.

Results

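LNCaP cells, an established line from a human prostate adenocarcinoma that responds to androgens, were compared after 72 h with ACBI at 0.2 µM and after 72 h with BD98 at 2 µM. The comparison took the 3 libraries labelled ACBI and the 3 labelled BD98, 6 of the 18 libraries of the series, and every gene of the deposited count table. The 3 libraries of cells given DMSO, the vehicle, were the common reference. The 9 libraries of cells given 2-77, ENZA or P-16 entered only the filter on low counts, the scaling of libraries and the estimate of the spread between replicates. All groups were 1 cell line in medium with serum, harvested at 72 h, and RNA was read as stranded messenger RNA libraries. The title of the series concerns inhibitors of the bromodomain of BRD7, and the labels state no target for ACBI or BD98. The doses differed, so the contrast of the compounds is also a contrast of doses, and a single time point was read. The labels do not state whether replicates were separate cultures, so each p-value measures the spread between these libraries, which may be technical.

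BAF and PBAF are multi-subunit complexes of the SWI/SNF family that use ATP to slide or evict nucleosomes and so open enhancers and promoters. Either SMARCA4 or SMARCA2 is their motor, ARID1A or ARID1B marks BAF, and ARID2, PBRM1 and BRD7 mark PBAF. In luminal prostate cells the pioneer factor FOXA1 and androgen signalling act at enhancers that these complexes keep open, and genes for secreted proteases such as KLK3, which encodes prostate-specific antigen, are read from them. A compound known as ACBI1 is a degrader of SMARCA2, SMARCA4 and PBRM1, and BD98 is a name in use for an inhibitor of BAF-dependent transcription. The labels do not say whether these are the compounds used.

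The 6 libraries held 16835093 to 28892825 counts. In ACBI replicate 3, 8.6% of counts fell on ribosomal RNA genes and in the other 5 libraries 0.639% to 1.13% did. That library also held more of the small non-coding RNA RN7SK, at 144 CPM (counts scaled to the size of the library) against 6.61 to 13.0. The counts of ACBI replicate 3 differed from those of replicates 1 and 2 by a chi-square of 12.7 and 8.44 per degree of freedom, ribosomal RNA genes left out, against 2.35 to 4.11 for the other pairs within a group. The counts of called genes were also taken without it. Luminal markers were detected with both compounds but not uniformly: 10 of 10 were tested, and against DMSO ACBI lowered 6 and raised 1 while BD98 lowered 7 and raised 2. Across all tested genes ACBI lowered 36.6% and raised 35.4%, and BD98 lowered 24.5% and raised 24.5%. KRT8, a luminal keratin, stood at 575 ± 28.4 CPM with ACBI and 468 ± 26.5 with BD98 (mean ± SD, n = 3), and KRT19, another, at 0.222 ± 0.175 and 5.1 ± 0.271. Of 10 immune markers 7 were in the table, only HLA-DRA and CD68 passed the filter on low counts, and the list summed to 6.26 to 7.31 CPM with ACBI and 5.79 to 7.18 with BD98.

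Levels below are CPM scaled by TMM factors, which correct for the composition of a library. Differences are log2 fold changes ± standard error (SE) from edgeR's quasi-likelihood model, positive where ACBI was higher, and p-values carry a Benjamini-Hochberg adjustment across the 15422 tested genes. A gene was called where the adjusted p was under 0.05. CPM values compare 1 gene between libraries and not 1 gene with another, since genes differ in length.

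The 2 compounds left these cells with widely different transcriptomes. HES6, a transcription factor of the HES family, was 98.7 times as high with ACBI as with BD98, while PLA2G2A, a secreted phospholipase, MKI67, the Ki-67 proliferation antigen, and UGT2B17, which inactivates androgens by glucuronidation, were 272, 23.1 and 27.6 times as high with BD98. Of the 15422 genes tested, 10739 (69.6%) were called, 5155 (33.4%) higher and 5584 (36.2%) lower with ACBI. A fit without ACBI replicate 3 called 10498 genes, 5262 higher and 5236 lower. A called share of a list near 69.6% is no more than the background, and lists are described by direction and size. At least 2-fold differences were called for 1249 genes higher and 1724 lower with ACBI, at least 4-fold for 327 and 805, and at least 16-fold for 37 and 251. In counts of libraries rather than of tests, all 3 ACBI libraries lay above all 3 BD98 libraries in 5147 genes, all 3 BD98 libraries lay above in 5622, and the groups overlapped in 4653. The median of all genes was -0.02 and the median size of a difference 0.41 on the log2 scale. With library totals in place of TMM factors this median moved to -0.13, and the split of called genes was 4167 higher and 6570 lower (38.8% higher, against 48% with TMM factors). Small differences in the text are to be read against that shift.

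Set beside the vehicle, each compound gave its own count. ACBI against DMSO called 11097 genes (72%), 5460 higher (35.4%) and 5637 lower (36.6%). BD98 against DMSO called 7559 genes (49%), 3783 higher (24.5%) and 3776 lower (24.5%), and 4640 higher and 2869 lower with library totals. Differences of at least 2-fold numbered 3204 with ACBI and 833 with BD98. These 2 contrasts share the 3 DMSO libraries, so their values are given side by side and not compared as independent results. In a principal component analysis of the 9 libraries, the first component (72.6% of the variance) placed ACBI at 81.5 to 84.5, BD98 at -38.4 to -37.3 and DMSO at -45.4 to -44.1. The second (13.9%) placed BD98 at 30.7 to 34.2, ACBI at -3.9 to 0.3 and DMSO at -31.3 to -29.6. Similarity can also be stated: for 7077 genes (45.9%) the 95% interval of the difference between ACBI and BD98 lay within 1.5-fold in both directions.

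**Figure D1:**
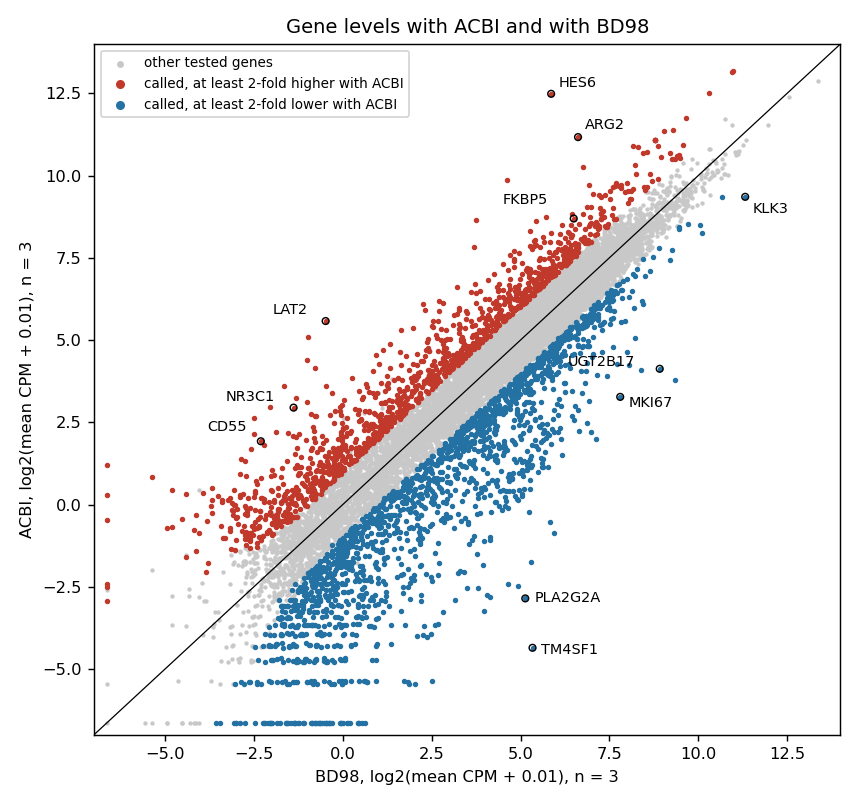
Mean level of each of the 15422 tested genes with BD98 (horizontal axis) and with ACBI (vertical axis), both as log2 of the mean CPM of 3 libraries plus 0.01; the diagonal marks equal levels. Red and blue points are the 1249 and 1724 genes called at least 2-fold higher or lower with ACBI, and the row at the lower edge holds genes with 0 counts in all 3 ACBI libraries.

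The genes with the largest differences in favour of ACBI included regulators, receptors and enzymes. HES6, on chromosome 2 from 238238267 to 238240038, stood at 5773, 5882 and 5545 CPM in the 3 ACBI libraries, 61.1, 58 and 55.3 in the BD98 libraries and 187, 180.3 and 184 in DMSO. The groups were far apart, with DMSO between the compounds (6.62 ± 0.061, adjusted p = 4.89e-31). ARG2, the mitochondrial arginase, on chromosome 14 from 67619920 to 67651705, was at 2254, 2323 and 2333 CPM with ACBI and 97.7, 92.6 and 104 with BD98, again with DMSO between them at 248, 232 and 232 (4.55 ± 0.0456, 23.4-fold, adjusted p = 5.82e-34). LAT2, an adaptor of immune receptor signalling, was at 49.3, 49.3 and 44.7 CPM with ACBI and 0.73, 0.684 and 0.703 with BD98 (6.07 ± 0.142). Low genes could differ as widely: NR3C1, which encodes the glucocorticoid receptor, on chromosome 5 from 143277931 to 143435512, was at 6.45, 9.09 and 7.54 CPM with ACBI, 0.472, 0.513 and 0.134 with BD98 and 1.69, 2.88 and 1.47 in DMSO (4.46 ± 0.326, 22-fold, adjusted p = 2.21e-12). GLI1, the transcription factor at the end of the Hedgehog pathway, was at 8.31, 7.22 and 8.04 CPM against 0.258, 0.171 and 0.268 (5.01 ± 0.446), and CHRM4, a muscarinic acetylcholine receptor, at 5.91, 7.09 and 5.47 against 0.129, 0.171 and 0.201 (5.14 ± 0.304). The other 6 of the 12 largest were TLL2 (6.10), a tolloid-like metalloprotease, LRATD1 (5.40), GALNT12 (5.20), which starts mucin-type glycan chains, FAM110B (4.93), SH3D21 (4.89) and ENTPD8 (4.55), an ectonucleotidase. The choice of these 12 required that the groups did not overlap and a mean of at least 5 CPM in the higher group, so their separation is a description.

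In the other direction the largest differences were in genes that ACBI-treated cells had nearly ceased to show. TM4SF1, a tetraspan protein of the cell surface, on chromosome 3 from 149369022 to 149377649, had 3 counts over the 3 ACBI libraries and 2843 over the 3 BD98 libraries, a ratio of 977 in depth-scaled counts (95% counting interval 334 to 4.74e+03). TNC, which encodes the matrix protein tenascin C, had 1 count against 406 (ratio 418, 74.7 to 1.66e+04). PLA2G2A, on chromosome 1 from 19975431 to 19980434, was at 0.0389, 0.304 and 0.0414 CPM with ACBI, 33.5, 36.1 and 35.7 with BD98 and 6, 5.51 and 6.24 in DMSO (-8.09 ± 0.182, adjusted p = 9.24e-26). In this gene, too, DMSO lay between the compounds. RYR2, the ryanodine receptor calcium channel, stood at 0.0777, 0.087 and 0.124 CPM with ACBI against 14.8, 16.4 and 15.4 with BD98 and 16.2, 17.4 and 18.4 in DMSO (-7.26 ± 0.179). BD98 libraries lay at about the DMSO level for RYR2 (BD98 against DMSO -0.16 ± 0.0752, adjusted p = 0.0766). OR51E1 (-7.49), an olfactory receptor family member of prostate epithelium, PCAT1 (-7.08), a long non-coding RNA, ANGPT2 (-7.07), a ligand of the TIE2 receptor, DIO1 (-6.95), which activates thyroid hormone, IL1RN (-6.86), the interleukin-1 receptor antagonist, TNS1 (-6.54) and NAV3 (-6.43) were also among the 12 largest. The same requirements chose them.

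Some genes moved away from DMSO in opposite directions with the 2 compounds, and the 5 with the largest direct difference on each side were taken among those moved at least 2-fold by each, with a mean of at least 5 CPM in the highest group. CA9, described with the hypoxia genes, fell under that level. Up with ACBI and down with BD98 were HES6 (ACBI against DMSO 4.96, BD98 against DMSO -1.66), TLL2 (4.76 and -1.34), LAT2 (4.85 and -1.22), LRATD1 (2.18 and -3.22) and FAM110B (2.96 and -1.98). Down with ACBI and up with BD98 were TNC, PLA2G2A (-5.52 and 2.57), MAB21L4 (-4.59 and 1.82), VWF (-5.01 and 1.38) and ALPK2 (-5.04 and 1.30). VWF, the von Willebrand factor of blood clotting, was at 0.583, 0.87 and 0.58 CPM with ACBI, 23.1, 20.9 and 21.8 in DMSO and 57.4, 56.1 and 57 with BD98, in 3 separate bands. The direction is what chose these genes, so their signs are a description.

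**Figure D2:**
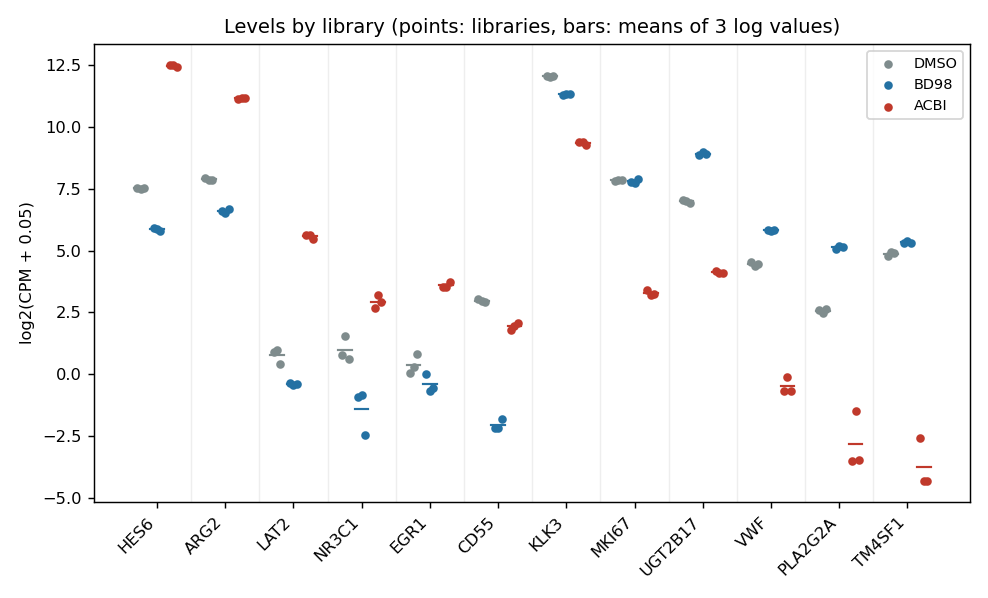
Levels of 12 genes in each of 9 libraries, as log2(CPM + 0.05); points are libraries and bars are means of the 3 log values for DMSO (grey), BD98 (blue) and ACBI (red). HES6, ARG2 and LAT2 show DMSO between a high ACBI and a low BD98, and PLA2G2A, VWF and UGT2B17 show it between a low ACBI and a high BD98.

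Proliferation genes had the list medians farthest from 0. Of 36 mitosis genes, 35 were lower with ACBI than with BD98 and 0 were higher, with a median of -3.72 against -0.02 over all genes. Of 36 DNA replication genes, 36 were lower with ACBI, with a median of -2.38. MKI67, on chromosome 10 from 128096661 to 128126423, stood at 10.4, 9.18 and 9.32 CPM with ACBI, 218, 212 and 240.5 with BD98 and 224, 235 and 231 in DMSO (-4.53 ± 0.0552, adjusted p = 6.96e-32). BD98 and DMSO libraries overlapped for this gene (BD98 against DMSO -0.04 ± 0.0418, adjusted p = 0.46). TOP2A, the topoisomerase that untangles sister chromosomes, was at 4.7, 4.52 and 4.56 CPM with ACBI and 129, 128 and 119.6 with BD98 (-4.77 ± 0.0656). UBE2C, which with the anaphase-promoting complex marks cyclins for degradation, was at 1.44, 1.17 and 1.49 against 38, 38.2 and 39.9 (-4.81 ± 0.0915). RRM2, the subunit of ribonucleotide reductase that limits nucleotide supply, was at 3.85, 3.74 and 4.23 CPM against 131, 147 and 144 (-5.16 ± 0.0698), and MCM10, CDC6 and CDC45, which assemble and fire replication origins, were lower with ACBI too (-4.77, -4.65 and -4.43).

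The compounds were also apart in how these lists stood to DMSO. With ACBI, 35 mitosis and 36 replication genes fell against DMSO, with medians of -4.02 and -2.1. With BD98, 24 mitosis genes fell and 0 rose (median -0.23), while 21 replication genes rose and 4 fell (median 0.19). Among all tested genes 36.6% fell with ACBI, and with BD98 24.5% fell and 24.5% rose. PLK1, the Polo-like mitotic kinase, had a BD98 difference from DMSO of -0.47 ± 0.0591 and an ACBI difference of -4.17 ± 0.0818. PCNA, the sliding clamp of DNA polymerase, had 0.42 ± 0.0464 with BD98 and -1.38 ± 0.0497 with ACBI, and MCM7, a subunit of the replicative helicase, had 0.25 ± 0.0386 and -2.04 ± 0.0421. In bulk RNA, fewer cells in cycle and less of these RNAs per cell cannot be told apart.

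CDK1, the mitotic kinase itself, was the only mitosis gene not called. It stood at 76.1, 83.6 and 110.3 CPM with ACBI, 86.4, 87.1 and 76.8 with BD98 and 93.1, 91.1 and 81.2 in DMSO, and the 3 groups overlapped. The difference between the compounds was 0.11 ± 0.115 (95% interval -0.14 to 0.36, adjusted p = 0.404), and over the alternatives it ran from -0.042, without ACBI replicate 3, to 0.225, with no call. CCNB1, the cyclin that partners it, was lower with ACBI (-2.03 ± 0.0423, adjusted p = 1.45e-26). CDK1 was singled out after its values were seen, and how reads of overlapping transcripts were assigned is not given in the sources used here.

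Promoters of these 2 lists are shown because mitotic genes are known for the CHR element, bound by the MuvB complex, and replication genes for the E2F site. RefSeq promoters (GRCh38.p14) were matched for 11726 of the 15422 tested genes, and the 250 bases before the start were searched on both strands. The CHR letters (TTTGAA or TTCGAA) stood in 17 of 30 matched mitosis genes (56.7%), 2 of 32 replication genes (6.25%) and 1120 of all matched genes (9.55%). E2F letters (TTTCGCGC, TTTGGCGC or TTTCCCGC) stood in 12 of 32 replication genes (37.5%), 2 of 30 mitosis genes (6.67%) and 456 of all (3.89%). The CDK1 promoter held the CHR letters too. Windows of 120 bases are given 5′ to 3′ on the strand of the gene, with the matched letters in capitals, for PLK1 (chr16:23678769-23678888, + strand) and CDK1 (chr10:60778113-60778232, + strand), mitotic genes that differed and did not differ between the compounds, and for MCM7 (chr7:100101398-100101517, - strand) and PCNA (chr20:5126623-5126742, - strand), where the PCNA match is on the other strand.
PLK1: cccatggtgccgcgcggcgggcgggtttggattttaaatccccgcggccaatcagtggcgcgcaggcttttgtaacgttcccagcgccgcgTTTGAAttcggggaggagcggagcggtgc
CDK1: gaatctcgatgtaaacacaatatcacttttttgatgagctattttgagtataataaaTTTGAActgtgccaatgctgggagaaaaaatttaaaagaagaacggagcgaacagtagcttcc
MCM7: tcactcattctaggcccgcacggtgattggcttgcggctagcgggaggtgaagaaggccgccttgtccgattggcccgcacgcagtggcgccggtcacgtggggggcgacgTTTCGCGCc
PCNA: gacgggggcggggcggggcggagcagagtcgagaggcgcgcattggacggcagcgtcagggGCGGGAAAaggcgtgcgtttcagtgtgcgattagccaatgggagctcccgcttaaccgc
The PLK1 match begins 29 bases before the start and the CDK1 match 161. A match of letters is a description and not a bound site.

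Regulators of entry into the cycle were mostly lower with ACBI as well. Among 25 tested G1 regulators and CDK inhibitors, 18 were lower and 4 higher with ACBI (median -0.79). E2F1, the factor that switches on replication genes, was at 5.05, 5.61 and 4.35 CPM with ACBI against 70.3, 65.6 and 72.7 with BD98 (-3.80 ± 0.077, adjusted p = 8.19e-27). E2F2, E2F7 and E2F8, which belong to the same family, were lower too (-5.28, -5.23 and -3.24). Higher with ACBI were CDKN2B (1.94 ± 0.171) and CDKN1B (0.60 ± 0.0677), inhibitors of cyclin-dependent kinases, CDK6 (1.37 ± 0.181) and, by a margin that other settings removed, the pocket protein gene RBL2 (0.09 ± 0.0383, adjusted p = 0.0453, up to 0.735). CDKN1A, the p21 inhibitor and a p53 target, was lower with ACBI (-0.79 ± 0.0467), at 111, 103 and 91.4 CPM against 167, 182 and 178 with BD98 and 272, 272 and 271 in DMSO. MYC was at 50.1, 48.9 and 44.6 CPM with ACBI, 243, 239 and 251 with BD98 and 462, 473 and 489.5 in DMSO, so that the 3 groups did not overlap (-2.35 ± 0.046, adjusted p = 3.55e-27). Of 32 genes of ribosome biogenesis and other MYC targets, 30 were lower with ACBI, 1 was higher and 1 was not called (median -0.86). They included NCL (-1.19 ± 0.0477), the nucleolar protein nucleolin, MYBBP1A (-1.36 ± 0.0403) and ODC1 (-1.19 ± 0.0366), the first enzyme of polyamine synthesis. UBTF, which binds ribosomal DNA, was the exception (0.38 ± 0.0392).

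Androgen-regulated genes differed in both directions. Of 47 tested androgen-induced genes, 28 were higher with ACBI than with BD98, 14 lower and 5 not called (median 0.62). Well known androgen targets lay on both sides. KLK3, on chromosome 19 from 50854915 to 50860764, was at 668, 668 and 626 CPM with ACBI, 2500, 2583 and 2588 with BD98 and 4325, 4232 and 4276 in DMSO (-1.97 ± 0.0324, 3.91-fold lower with ACBI, adjusted p = 7.43e-29). KLK2, the neighbouring kallikrein protease, was at 34.2, 33.1 and 32.1 CPM against 294, 289 and 304 (-3.15 ± 0.041), and TMPRSS2, a transmembrane protease, at 208, 217 and 211 against 604, 621 and 631 (-1.55 ± 0.0372). In each of the 3, ACBI libraries were lowest and DMSO libraries highest. Also lower with ACBI were the sialyltransferase ST6GALNAC1 (-5.05 ± 0.185), TARP (-4.74 ± 0.119), a transcript within the T cell receptor gamma locus whose counting by strand is not stated, and the prostatic acid phosphatase ACP3 (-2.05 ± 0.0723).

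At the opposite end, SLC45A3, HPGD and MAF were called above DMSO with ACBI and below it with BD98. SLC45A3, the prostein transporter, on chromosome 1 from 205657851 to 205680509, was at 1276, 1269 and 1110 CPM with ACBI, 102, 110.0 and 113 with BD98 and 445, 429 and 447 in DMSO (3.49 ± 0.0529, 11.2-fold higher with ACBI, adjusted p = 3.86e-28). HPGD, which degrades prostaglandins, was at 17.7, 16.3 and 23.6 CPM with ACBI and 2.15, 1.94 and 1.94 with BD98 (3.25 ± 0.144), and the transcription factor MAF at 158, 149 and 169 against 24.2, 23 and 21.4 (2.80 ± 0.0631). FKBP5, a chaperone of steroid receptors, was at 405, 404 and 433 CPM with ACBI, 88.3, 91.8 and 90.7 with BD98 and 104, 96.7 and 96.3 in DMSO (2.20 ± 0.042). Here BD98 lay close to DMSO (-0.13 ± 0.0427) and ACBI lay above both. NCAPD3 (2.39 ± 0.0378), a condensin subunit, CAMKK2 (2.04 ± 0.0386), a kinase upstream of AMPK, and LIFR (2.50 ± 0.0779), a cytokine receptor, showed the same order of ACBI above BD98. Against DMSO, ACBI raised 22 and lowered 20 of the 47 genes (median 0.05), and BD98 raised 1 and lowered 40 (median -0.67). Of all tested genes ACBI raised 35.4% and lowered 36.6%, and BD98 raised 24.5% and lowered 24.5%. The summed level of the list was 16100 to 16400 CPM with ACBI, 10600 to 10900 with BD98 and 16300 to 16400 in DMSO, a sum dominated by its most abundant genes. C1orf116 and CHRNA2 were lowered by both compounds, with differences between them of 0.03 ± 0.0418 and -0.17 ± 0.156.

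**Figure D3:**
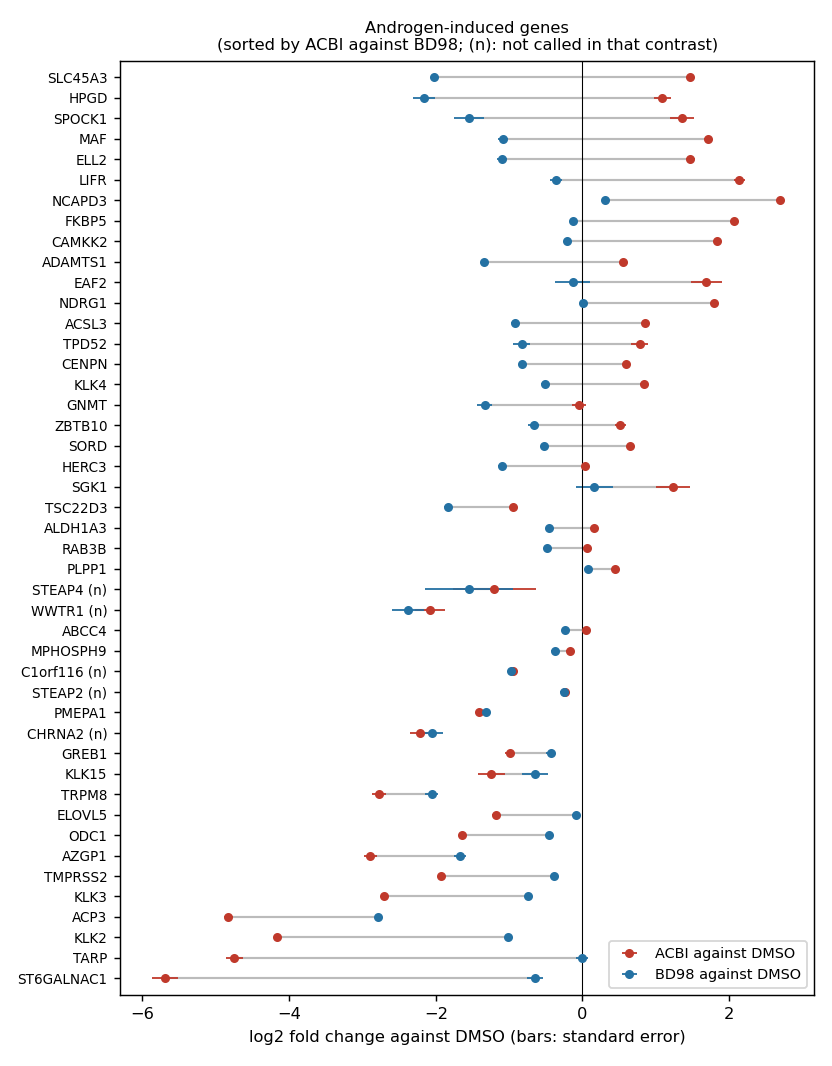
Log2 fold change against DMSO of 45 of the 47 androgen-induced genes with ACBI (red) and BD98 (blue), bars giving the SE, sorted by the difference between the compounds; (n) marks the 5 genes not called between them. Red points spread from -5.69 to 2.69, whereas 38 of the 45 blue points were called below 0 and 1 above.

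Genes repressed by androgen split as well: of 17 tested, 9 were higher and 8 lower with ACBI (median 0.21). The lower 8 held the UGT2B enzymes, which attach glucuronic acid to androgens. UGT2B17, on chromosome 4 from 68537176 to 68576322, was at 17.9, 17.1 and 17.3 CPM with ACBI, 465, 507 and 477 with BD98 and 133, 130.3 and 123 in DMSO (-4.79 ± 0.0466, adjusted p = 3.61e-34). UGT2B15 was at 18.6, 19.1 and 18.9 CPM with ACBI against 263, 280.3 and 246 with BD98 (-3.80 ± 0.0519). Both lay below DMSO with ACBI (-2.88 and -1.92) and above it with BD98 (1.91 and 1.88). UGT2B11 (-3.16), UGT2B28 (-2.27) and UGT2B10 (-1.58) differed in the same direction, and UGT2B7 had 0 counts with ACBI against 78 with BD98, at least 26.8-fold lower when 3 counts are set for the group at 0. The UGT2B genes are near-identical copies, so counts may be split among them and the level of any one is uncertain. CAMK2N1, an inhibitor of the kinase CaMKII, was at 16.4, 15.4 and 18.7 CPM with ACBI against 341, 345 and 320.1 (-4.31 ± 0.0523), DDC, which makes dopamine and serotonin, at 0.66, 1.04 and 0.829 against 38.8, 38.8 and 35.9 (-5.49 ± 0.103), and BCHE, butyrylcholinesterase, was lower as well (-3.45 ± 0.0636). Among the 9 that were higher with ACBI were HES6, the chemokine receptor CXCR4 (3.16 ± 0.174), the growth factor receptor MET (3.13 ± 0.254) and IGFBP3 (1.95 ± 0.084), which binds insulin-like growth factors.

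The wider list of steroid metabolism held 12 genes lower and 4 higher with ACBI among 21 tested (median -0.55, against -0.14 for ACBI and 0.51 for BD98 against DMSO). It also counted DIO1, named above, which acts on thyroid hormone and not on a steroid. HSD17B2, which oxidises testosterone, had 1 count with ACBI and 61 with BD98, a ratio of 62.9 (10.9 to 2.52e+03). DIO3, which inactivates thyroid hormone, was at 0.233, 0.217 and 0.166 CPM with ACBI, 5.88, 5.01 and 5.83 with BD98 and 40.0, 42.2 and 38.6 in DMSO (-4.74 ± 0.185). HSD17B4 (0.82 ± 0.0438) and RDH11 (0.74 ± 0.0313), a retinol dehydrogenase, were higher with ACBI.

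Of 24 tested regulators of the prostate lineage, 12 were higher with ACBI, 6 lower and 6 not called (median 0.30). FOXA1 was at 839.6, 855 and 821 CPM with ACBI against 514, 518 and 492 with BD98 (0.72 ± 0.0324, adjusted p = 3.45e-18), and HOXB13, a homeobox factor of prostate, at 776, 729.6 and 657 against 555, 575 and 604 (0.32 ± 0.0431). GATA2, a zinc-finger factor, was lower with ACBI, at 86.9, 78 and 73.3 CPM against 266, 254 and 270.4 with BD98 and 254, 254 and 256 in DMSO (-1.73 ± 0.0458, adjusted p = 5.99e-24). BD98 left GATA2 within 1.5-fold of DMSO (0.05 ± 0.0437). KLF5, an epithelial Kruppel-like factor, was at 7.89, 10.5 and 12.9 CPM with ACBI, 0.687, 0.969 and 0.737 with BD98 and 5.12, 4.35 and 4.37 in DMSO (3.73 ± 0.207, adjusted p = 6.21e-16). SPDEF, an ETS factor of secretory cells, was at 299, 291 and 246 against 85.3, 80.7 and 91.3 (1.70 ± 0.0581) and SOX9 at 9.63, 7.53 and 9.32 against 2.49, 2.45 and 2.88 (1.74 ± 0.127).

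The integrated stress response, in which ATF4 drives genes of amino acid supply and transport, was lower than in DMSO with both compounds. Against DMSO, ACBI lowered 29 of 32 genes and BD98 lowered 30, and 0 were raised by either (medians -1.42 and -1.32). Of all tested genes ACBI lowered 36.6% and BD98 24.5%. These contrasts share the DMSO libraries. In the direct contrast 9 genes were higher with ACBI, 19 lower and 4 not called, with a median of -0.26. For 14 of the 32 the interval lay within 1.5-fold. Over all tested genes the interval lay within 1.5-fold for 45.9%, and 69.6% were called, so the list as a whole was not closer than other genes. ATF4 itself was at 444, 445 and 432 CPM with ACBI, 381, 402 and 425 with BD98 and 913, 883 and 907 in DMSO (0.13 ± 0.036, adjusted p = 0.00239, and 0.636 with library totals). ASNS, asparagine synthetase, was at 72.2, 72.6 and 69.1 CPM with ACBI, 77.5, 77.8 and 75.4 with BD98 and 284, 289 and 280.2 in DMSO (-0.11 ± 0.0376, interval -0.18 to -0.03, adjusted p = 0.0125, a call lost under 6 of 14 alternatives). TRIB3, the pseudokinase that feeds back on ATF4, was at 52.1, 50.5 and 49.8 against 69.1, 65.2 and 66.8 (-0.40 ± 0.0428) and 344, 335 and 358 in DMSO, and SLC1A5, a glutamine transporter, at 45.3, 45.2 and 40.2 against 50.8, 51.6 and 52 (-0.24 ± 0.0451) and 271, 273 and 293 in DMSO. ASNS, TRIB3 and SLC1A5 were below DMSO with ACBI (-1.99, -2.77 and -2.68) and with BD98 (-1.89, -2.37 and -2.44), while the interval between the compounds lay within 1.5-fold.

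Other members were apart. ATF3, a stress-induced repressor, was at 67.6, 73.8 and 75.9 CPM with ACBI, 18.8, 18.2 and 21.9 with BD98 and 74, 73.4 and 75.8 in DMSO, so that ACBI overlapped DMSO and BD98 lay below both (1.87 ± 0.0627, adjusted p = 2.40e-21). GPT2, alanine aminotransferase, was at 300.0, 292 and 295 against 136, 137 and 140.3 (1.10 ± 0.0345) with 307, 310.1 and 309 in DMSO. DDIT3, the CHOP factor, was at 49.1, 44.9 and 43.2 CPM with ACBI and 23.4, 23.3 and 24.6 with BD98 (0.94 ± 0.0548), SLC7A11, the cystine transporter, at 95.8, 96.3 and 122 against 50.6, 45.4 and 39.8 (1.21 ± 0.113), and CHAC1, which degrades glutathione, at 11.7, 9.66 and 8.87 against 5.11, 5.36 and 4.92 (0.98 ± 0.098) with 76, 73.4 and 74 in DMSO. STC2, a secreted stanniocalcin, differed the other way, at 33.5, 32.8 and 34.7 CPM with ACBI, 80.0, 87.4 and 82.2 with BD98 and 318, 313 and 312 in DMSO (-1.30 ± 0.0398, adjusted p = 2.37e-22). SHMT2 (-0.85 ± 0.0352), of mitochondrial one-carbon metabolism, CBS (-0.99 ± 0.0518), of cysteine synthesis, and SLC7A5 (-1.12 ± 0.134), a transporter of large amino acids, were likewise lower with ACBI.

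Windows from 3 of these genes are shown with their promoter letters, since the amino acid response element, the CARE (TGATGNAA, both strands), is the site ATF4 is known to bind. It stood in 3 of 25 matched stress response genes (12%), which were ASNS, ATF3 and CHAC1, and in 168 of 11726 matched genes (1.43%). ASNS (chr7:97872413-97872532, - strand) had an interval between the compounds within 1.5-fold, whereas ATF3 (chr1:212565160-212565279, + strand) and CHAC1 (chr15:40953221-40953340, + strand, match on the other strand) were higher with ACBI.
ASNS: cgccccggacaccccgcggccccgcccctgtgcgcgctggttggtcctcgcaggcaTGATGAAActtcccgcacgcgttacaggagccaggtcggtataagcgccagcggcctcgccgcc
ATF3: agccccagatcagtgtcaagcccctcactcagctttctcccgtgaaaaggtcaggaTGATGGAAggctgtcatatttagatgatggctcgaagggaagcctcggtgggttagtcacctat
CHAC1: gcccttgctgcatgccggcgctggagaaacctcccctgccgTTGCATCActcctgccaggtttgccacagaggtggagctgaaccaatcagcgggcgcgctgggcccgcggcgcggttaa
The capitals mark the matched 8 letters in each window of 120 bases. With 3 genes this is a description of the sequences only.

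**Figure D4:**
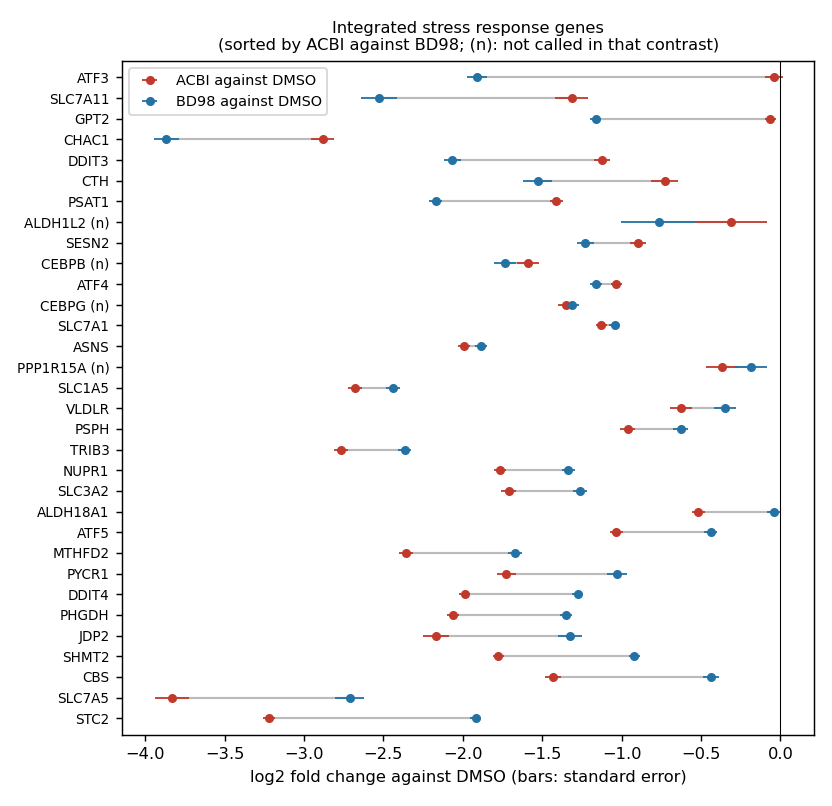
Log2 fold change against DMSO of 32 integrated stress response genes with ACBI (red) and BD98 (blue), bars giving the SE, sorted by the difference between the compounds; (n) marks the 4 genes not called between them. Points of both colours lie at or below 0, close together for ASNS and CEBPG and far apart for ATF3 and STC2.

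Aminoacyl-tRNA synthetases, which load amino acids onto tRNA and include ATF4 targets, were mostly within 1.5-fold. Of 20 genes 4 were higher with ACBI, 11 lower and 5 not called (median -0.14), or 1 higher and 13 lower with library totals. The interval lay within 1.5-fold for 17 of the 20, and for 45.9% of all tested genes. The widest differences were FARSB (-0.74 ± 0.0421), VARS1 (-0.64 ± 0.0436) and FARSA (-0.59 ± 0.0357) among those lower and TARS1 (0.39 ± 0.0406) among those higher. Of 20 unfolded protein response genes 12 were lower, 5 higher and 3 not called (median -0.29), or 3 higher and 12 lower with library totals. HSP90B1 (-0.84 ± 0.0379) and MANF (-0.82 ± 0.045), which aid folding in the endoplasmic reticulum, were lower with ACBI and the stress sensor ERN1 (0.68 ± 0.0463) was higher. No member of either list differed by 2-fold with a call.

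Lipid genes leaned to ACBI. Of 23 tested genes of cholesterol synthesis, 17 were higher with ACBI, 2 lower (4 with library totals) and 4 not called (median 0.57). STARD4, which carries cholesterol between membranes, was at 39.2, 40.2 and 50.5 CPM with ACBI, 4.98, 7.52 and 4.42 with BD98 and 15.4, 13.9 and 12.5 in DMSO (2.99 ± 0.155, adjusted p = 9.61e-12). SC5D, a desaturase of the pathway, was at 198, 211 and 240.4 against 72.1, 67.8 and 58.3 (1.72 ± 0.0919) and INSIG1, which holds SREBP in the endoplasmic reticulum, at 197, 198 and 213 against 66, 66.8 and 59.5 (1.66 ± 0.0449). LSS (1.18 ± 0.0494), the lanosterol synthase, was higher as well, whereas EBP (-0.50 ± 0.0568) and FDPS (-0.24 ± 0.0425) were lower. Against DMSO, ACBI raised 17 and lowered 3, and BD98 raised 2 and lowered 10. The shares of all tested genes were 35.4% raised and 36.6% lowered with ACBI, and 24.5% each way with BD98. ACSL3, named next, also stands on the androgen-induced list. Fatty acid genes were mixed, with 11 of 20 higher and 5 lower (median 0.20): the acyl-CoA synthetases ACSL4 (2.33 ± 0.196) and ACSL3 (1.78 ± 0.0502) and the elongase ELOVL7 (2.17 ± 0.0812) were higher, and ELOVL5 (-1.09 ± 0.0523), ELOVL6 (-0.91 ± 0.0574) and ACSL1 (-0.91 ± 0.0368) lower. THRSP, a regulator of lipogenesis, had 1 count with ACBI and 74 with BD98 (ratio 76.3, 13.3 to 3.05e+03).

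Glycolysis and hypoxia genes were mostly lower with ACBI than with BD98, with 17 of 25 tested lower and 5 higher (median -0.47). Their medians against DMSO were -0.67 with ACBI and -0.05 with BD98. CA12, a membrane carbonic anhydrase, was at 2.64, 2.83 and 2.07 CPM with ACBI and 34, 33.8 and 34.1 with BD98 (-3.76 ± 0.0812), the prolyl hydroxylase EGLN3 at 5.79, 5.39 and 5.09 against 17.9, 16.1 and 17.5 (-1.66 ± 0.082) and the phosphofructokinase PFKP at 68, 67.3 and 65.3 against 159, 148 and 164 (-1.23 ± 0.0405). CA9 had 0 counts with ACBI and 36 with BD98, at least 12.4-fold lower. NDRG1, which is induced by both hypoxia and androgen, was the other way, at 1088, 1074 and 993 CPM against 299.9, 308 and 309 (1.78 ± 0.037), as was hexokinase HK1 (0.93 ± 0.039).

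Immediate-early genes, the first targets of growth factor signalling, were mostly higher with ACBI: 16 of 23 tested, with 5 lower and 2 not called (median 0.53). EGR1 was at 11.5, 11.4 and 13.4 CPM with ACBI, 0.944, 0.57 and 0.636 with BD98 and 0.989, 1.16 and 1.69 in DMSO (4.06 ± 0.215, adjusted p = 2.00e-16). FOS was at 4.23, 3.44 and 4.64 CPM with ACBI, 0.386, 0.342 and 0.435 with BD98 and 3.2, 3.94 and 3.52 in DMSO (3.36 ± 0.235, adjusted p = 1.39e-13). EGR1 was above DMSO with ACBI (3.21 ± 0.201) and below it with BD98 (-0.85 ± 0.28, adjusted p = 0.0125). FOS was below DMSO with BD98 (-3.16 ± 0.243), and with ACBI its difference was 0.21 ± 0.169 (adjusted p = 0.28). PHLDA1 (1.33 ± 0.186) was raised against DMSO by both (2.95 and 1.62). SPRY2 (-1.55 ± 0.272), SPRED1 (-0.87 ± 0.159) and NR4A1 (-0.78 ± 0.108), the first 2 of which restrain RAS signalling, were lower with ACBI. SPRY4, a gene of the SPRY2 family, was higher with ACBI (3.66 ± 0.562), on 69 counts against 5 with BD98.

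Genes that BET bromodomain inhibitors are known to induce, among them histone genes, were higher with ACBI in 8 of 11 and lower in 3 (median 0.84). With library totals 6 were higher and 3 lower. HEXIM1, which restrains the elongation kinase P-TEFb, was at 223 ± 7.72 CPM with ACBI, 118 ± 1.45 with BD98 and 86.7 ± 3.11 in DMSO (mean ± SD, n = 3), without overlap between the compounds (0.92 ± 0.041, adjusted p = 3.00e-18). H2BC21 was at 471, 465 and 459 against 152, 154 and 155 (1.60 ± 0.0358) and H2BC4 at 74.5, 76.3 and 80.0 against 25.2, 26.4 and 26.2 (1.57 ± 0.0719). ZCCHC24 was lower with ACBI (-0.53 ± 0.0647). Histone genes are close copies of each other, so their individual levels are uncertain.

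Interferon-stimulated genes were mixed: 16 of 32 tested were lower with ACBI, 7 higher and 9 not called (median -0.42). Against DMSO, ACBI raised 14 and lowered 15 (median -0.22), and BD98 raised 21 and lowered 5 (median 0.44). For all tested genes these shares were 35.4% and 36.6% with ACBI, and 24.5% each way with BD98. IFI44 was at 0.66, 0.522 and 0.373 CPM with ACBI and 4.76, 4.5 and 4.25 with BD98 (-3.10 ± 0.212), SAMD9 at 0.66, 1.26 and 0.953 against 6.09, 6.27 and 6.8 (-2.74 ± 0.193) and the viral RNA sensor OAS1 at 0.272, 0.478 and 0.207 against 2.15, 2.79 and 2.18 (-2.87 ± 0.313). HERC5, the ligase for ISG15, was the reverse, at 38.5, 39.5 and 40.6 CPM with ACBI against 3.6, 2.73 and 2.91 with BD98 and 4.6, 4.25 and 5.21 in DMSO (3.67 ± 0.109, adjusted p = 1.03e-22), with its neighbour HERC6 at 57, 57.9 and 55 against 11.1, 11.2 and 11.4 (2.33 ± 0.0759) and the factor IRF9 higher too (1.31 ± 0.103). Members of 1 pathway thus differed in both directions. In the class I antigen presentation list 10 of 15 were lower with ACBI and 2 higher (median -0.41). The class I transactivator NLRC5 was at 1.79, 1.44 and 1.53 CPM against 8.2, 9.12 and 6.87 (-2.32 ± 0.147), and the peptide trimmer ERAP1 was higher with ACBI (1.28 ± 0.0676). CD55, a shield of the cell surface against complement, was lowest with BD98: 3.38, 3.78 and 4.18 CPM with ACBI, 0.172, 0.171 and 0.234 with BD98 and 8.15, 7.79 and 7.62 in DMSO (4.22 ± 0.276, adjusted p = 2.75e-14). CD46, another complement regulator, was at 232, 240.5 and 259.6 against 139, 141 and 129 (0.84 ± 0.0424).

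Signalling and matrix genes held some of the larger single differences. In the Notch list 6 of 15 were higher with ACBI and 6 lower. HES6 was highest, HEY1, a Notch target, was at 3.15, 4.61 and 4.43 CPM with ACBI against 0.644, 0.57 and 0.469 (2.86 ± 0.335), the ligand JAG1 at 40.0, 39.2 and 40.3 against 13, 15.2 and 14.3 (2.83-fold, adjusted p = 2.39e-16) and the receptor NOTCH1 at 24.5, 24.2 and 19.6 against 67, 60.7 and 68.2 (-1.53 ± 0.0621). In the Hedgehog list 5 of 9 were higher and 2 lower: GLI1 and GLI3 (2.04 ± 0.156) were higher with ACBI and KIF7 (-1.43 ± 0.291) lower. Matrix and adhesion genes were higher in 13 and lower in 11 of 26. Fibronectin, FN1, was at 2722, 2674 and 2511 CPM with ACBI, 521, 515 and 553 with BD98 and 960.4, 979 and 979 in DMSO (2.31 ± 0.0355, adjusted p = 1.89e-29). The laminin chain LAMC1 was at 1295, 1291 and 1229 against 299, 296 and 308 (2.08 ± 0.0352) and the epithelial cadherin CDH1 at 1936, 1940 and 1937 against 727, 771 and 778 (1.35 ± 0.0329). The collagen chains COL5A2 and COL12A1 ran the other way, with COL5A2 at 5.05, 6.09 and 6.05 CPM with ACBI against 14.6, 14.2 and 13.5 (-1.30 ± 0.0942) and COL12A1 at 13.2, 13.3 and 12.1 against 30.9, 32.2 and 31.8 (-1.30 ± 0.0796).

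**Figure D5:**
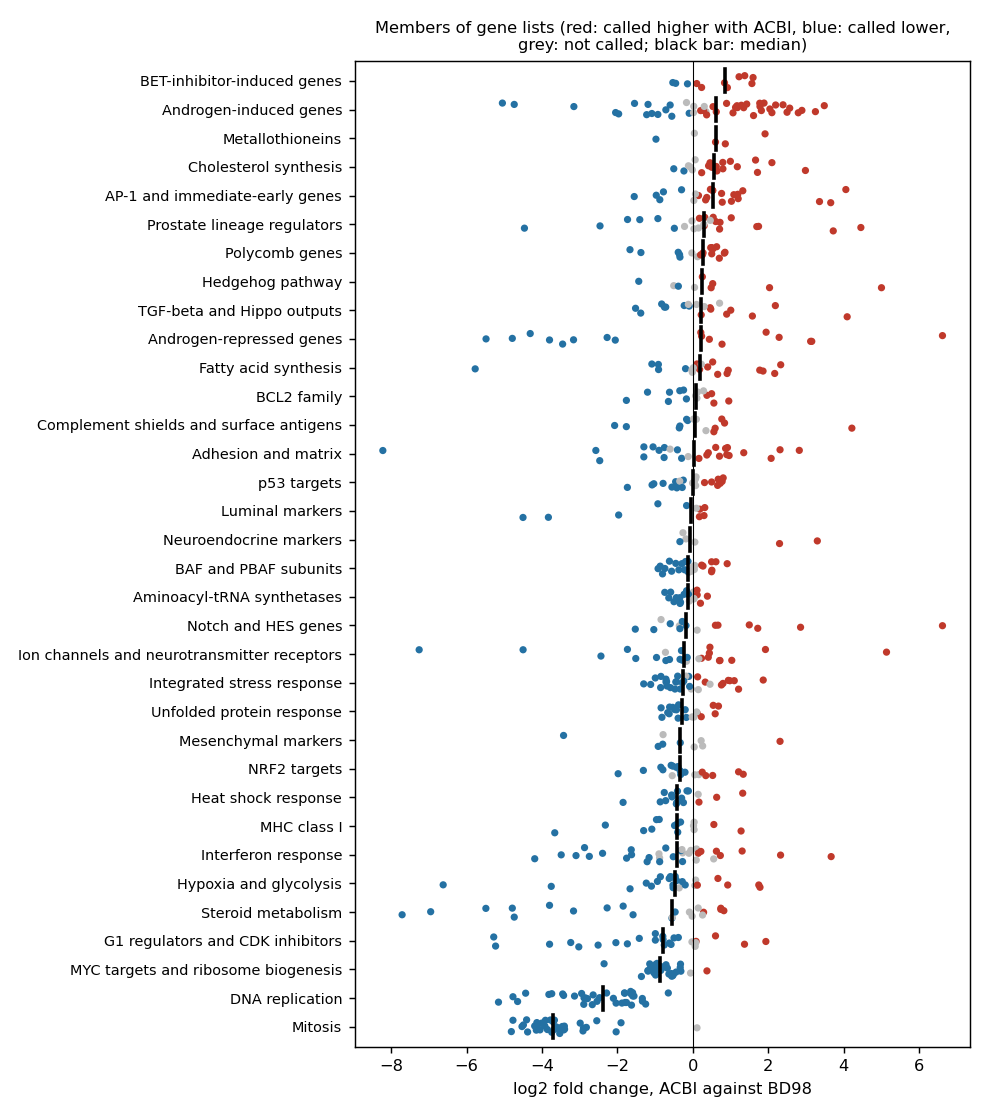
Log2 fold change between ACBI and BD98 of every tested member of the 34 gene lists with at least 5 tested members, red where called higher with ACBI, blue where called lower and grey where not called; black bars are list medians. Mitosis and DNA replication lie almost wholly on the BD98 side, at medians of -3.72 and -2.38, and most other lists straddle 0; points for TNC, THRSP, CA9, UGT2B7 and HSD17B2 rest on 0 or 1 counts with ACBI and that for BST2 on 2, and at their counting bounds these stay on the same side of their list's median.

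Called differences in the RNA of the remodelling complexes themselves were all under 2-fold. Of 27 tested BAF and PBAF subunits 14 were lower with ACBI, 7 higher and 6 not called, with a median of -0.13. For 16 the interval lay within 1.5-fold. Over all tested genes 69.6% were called, and for 45.9% the interval lay within 1.5-fold. SMARCA4 was at 204, 208 and 188 CPM with ACBI, 274, 263 and 281 with BD98 and 224, 222 and 229 in DMSO (-0.45 ± 0.0375, adjusted p = 7.69e-12). SMARCA2 was at 58, 58.7 and 65.5 against 56.5, 58.4 and 60.7 (0.05 ± 0.0502, interval -0.05 to 0.16, adjusted p = 0.358) and PBRM1 at 171, 170.2 and 186 against 189.9, 196 and 190.2 (-0.13 ± 0.0408, adjusted p = 0.00722, not called without ACBI replicate 2 or without BD98 replicate 2). BRD7 was at 53.4, 58.8 and 61.8 CPM with ACBI, 56.8, 70.1 and 62.4 with BD98 and 58.1, 59.8 and 54.1 in DMSO (-0.12 ± 0.061, interval -0.24 to 0.01, adjusted p = 0.0878); it was called, lower with ACBI, with library totals and without ACBI replicate 3 or BD98 replicate 1. RNA does not read the amount of protein, so these values do not bear on degradation of a subunit. The widest differences were ARID2 (0.91 ± 0.0379), at 149.6, 144 and 147 CPM with ACBI, 77.2, 77.2 and 79.9 with BD98 and 77.4, 78.4 and 78.1 in DMSO, SS18 (0.61 ± 0.047), ARID1A (0.51 ± 0.0453) and ARID1B (0.50 ± 0.0429) higher with ACBI, and SMARCD3 (-0.92 ± 0.0747), DPF3 (-0.86 ± 0.316, adjusted p = 0.0161, not called without ACBI replicate 3 or BD98 replicate 3), DPF1 (-0.80 ± 0.161) and PHF10 (-0.74 ± 0.0628) lower.

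Beyond the lists, genes changed alike by both compounds were taken as those called at least 2-fold against DMSO in 1 direction with both and with an interval between the compounds within 1.5-fold. The 5 highest were TXNIP, PCDHB14, EFR3B, ARRDC4 and STXBP5L. TXNIP, which binds thioredoxin and limits glucose uptake, was at 350.1, 359 and 357 CPM with ACBI, 438, 456 and 450.2 with BD98 and 126, 119 and 118 in DMSO, and the compounds differed by -0.33 ± 0.0346 (adjusted p = 8.81e-10). ARRDC4, its relative among the alpha-arrestins, was at 34, 34.3 and 40.4 CPM with ACBI, 35.6, 37 and 34.1 with BD98 and 14.6, 14.9 and 15.2 in DMSO, and here the compounds overlapped (0.03 ± 0.0677, interval -0.11 to 0.17). The 5 lowest were SLC1A5, TRIB3, AADAT, SLC6A9 and PMAIP1. SLC6A9, a glycine transporter, was at 12, 10.7 and 10.4 CPM with ACBI, 11.7, 10.0 and 10.8 with BD98 and 50.2, 48.8 and 50.8 in DMSO (0.02 ± 0.0828, interval -0.15 to 0.19), and PMAIP1, the pro-apoptotic NOXA, at 4.35, 4.7 and 6.46, 5.19, 4.84 and 4.25 and 21.1, 20.8 and 18.5 (0.13 ± 0.141, interval -0.16 to 0.41). The rule fixes their direction, so the values describe how close the compounds were.

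A last set stood at least 2-fold away from DMSO with BD98 while the interval of ACBI stayed within 1.5-fold of it, and the 5 largest per direction with a mean of at least 5 CPM in the higher group were taken. FOS, described with the immediate-early genes, fell under that level. Higher with BD98 were CBLN2, STARD13, NXN, FAM13A and PGM2L1. CBLN2, a secreted synaptic organiser, was at 31.6, 32.4 and 30.4 CPM with BD98, 10.2, 10.9 and 9.86 with ACBI and 10.3, 10.3 and 9.58 in DMSO (ACBI against BD98 -1.61 ± 0.0681, adjusted p = 8.21e-19). FAM13A was at 184, 195 and 193 against 104, 102 and 108 with ACBI (-0.87 ± 0.0406). Lower with BD98 were ELOVL7, PLPP3, ATF3, ATXN1 and JAG1. ELOVL7, an elongase of long fatty acids, was at 11.5, 10.9 and 10.6 CPM with BD98, 46.8, 48.3 and 53.4 with ACBI and 54.7, 58.1 and 54.6 in DMSO (2.17 ± 0.0812, adjusted p = 3.56e-20), and PLPP3, a lipid phosphatase, at 3.99, 2.51 and 2.95 against 14.8, 14.4 and 12.1 (2.12 ± 0.126). In these 10 genes the BD98 libraries did not overlap the ACBI libraries, which the rule all but fixes, so this is a description. The 2 groups overlapped in 30.2% of all tested genes.

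Markers of cell identity were mixed. Of 10 luminal markers 4 were higher with ACBI (2 with library totals) and 5 lower: KRT19 was at 0.233, 0.392 and 0.0414 CPM with ACBI against 5.41, 4.9 and 4.99 (-4.50 ± 0.303) and CD24 at 2.95, 2.78 and 2.57 against 37.2, 43.2 and 38.4 and 7.97, 7.18 and 9.05 in DMSO (-3.83 ± 0.115), while KRT8 (0.30 ± 0.0402) and KRT18 (0.19 ± 0.036) were slightly higher. Of 16 neuroendocrine markers 6 were tested: the synaptic vesicle protein SYP was higher with ACBI, at 13.6, 14.5 and 15 CPM against 2.27, 3.7 and 2.88 (2.30 ± 0.148, adjusted p = 2.22e-14), and SCG3 at 0.971, 0.826 and 1.28 against 0.0429, 0.171 and 0.101 (3.30 ± 0.575), while DLL3 was lower (-0.34 ± 0.113) and 3 were not called. Of 9 tested mesenchymal markers 1, FN1, was higher and 4 were lower, among them VIM (-0.80 ± 0.0998) and COL3A1 (-3.43 ± 0.402). Another of the 4, PDGFRB, lost its call under 9 of the alternatives (adjusted p up to 0.403). Without ACBI replicate 3, 2 mesenchymal markers were higher and 3 lower. Only 2 of 8 basal markers were tested, KRT14 (1.18 ± 0.397) and DST (1.14 ± 0.0818), both higher with ACBI. KRT14 was not called without ACBI replicate 1 (adjusted p = 0.0531), and KRT18 not with library totals (adjusted p = 0.0878). The part of these markers in the differences above was not tested.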

How the data were processed

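Stranded messenger RNA libraries of LNCaP cells were sequenced, 3 per group in 6 groups, and a table of expected counts per gene (estimated counts, which need not be whole, with no normalization seen in the values) was deposited by the authors. Per the submitters' processing notes, STAR, Partek, DESeq2 and the build hg38 were used, with no version given. The gene counter, its strand setting and the annotation are not given in the sources used here. Columns were matched to samples by name; the columns named SCO277 and PB_16 hold the groups 2-77 and P-16, and 0 columns were left unused. Mitochondrially encoded genes were not analysed here.

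The counts were rounded to whole numbers. Of 20145 genes, edgeR 4.0.16 (R 4.3.3, limma 3.58.1) tested 15422 after its filter on low counts by group and removed 4723. TMM factors, 1 mean per group and a robust quasi-likelihood fit of all 18 libraries (12 residual degrees of freedom, biological coefficient of variation 0.0573) gave the contrasts of ACBI with BD98 and of each with DMSO, at an adjusted p under 0.05. The SE is the size of the log2 fold change before edgeR's shrinkage, divided by the square root of F. Where that size exceeded 12, the reported log2 fold change took its place. The 95% intervals use the same fit and are centred on the reported log2 fold change. Counting intervals and the floor of 3 counts, set over the 3 libraries of a group, cover counting error only; 3 counts were 0.1 to 0.175 CPM in the 9 libraries compared. Gene starts and ends are those of the deposited table, the end taken as the listed stop minus 1. Promoters came from RefSeq (GRCh38.p14), of which the 250 bases before the start were searched. Figures were drawn with Python 3.11.15 and matplotlib 3.10.9.

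The members and the gene lists were chosen with earlier results of these data known. Genes were named by rule: the 12 largest differences per direction among called genes without overlap and with a mean of at least 5 CPM; and, at the same CPM and moved at least 2-fold from DMSO, the 5 per direction moved in opposite directions, the 5 moved alike and the 5 moved by BD98 with ACBI within 1.5-fold of DMSO; up to 4 called members per list and direction; and a panel. CDK1, PLK1, MCM7, PCNA, CCNB1, CAMKK2, NCAPD3, LIFR, UGT2B10, UGT2B11, UGT2B28, BCHE, IGFBP3, LSS, SAMD9, COL12A1, CEBPG, C1orf116, CHRNA2, HLA-DRA and CD68 were chosen after their values were seen. Some genes that the rule selects are not reported here.

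Counts were also simulated for the 18 libraries, with ACBI set equal to BD98 except in the changed genes, and 15273 genes were tested. The test recovered 56%, 70%, 84% and 96% of 50 genes each changed 1.25-, 1.5-, 2- and 4-fold, and 5 of 158 calls were unchanged genes. Far fewer genes changed there than the 10739 called between the compounds, and no library was made to stand apart. These shares therefore describe the test in that setting and not the error of the real contrast. Same-numbered replicates did not deviate together (correlations of 0.015, 0.01 and -0.068 between ACBI and BD98), so replicate numbers were not used as pairs. The alternatives were DESeq2 1.42.0, other scaling factors, other filters, only the groups compared, a replicate block, no ribosomal RNA genes and each library left out.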

Additional observations from a re-analysis of the deposited data

How the results depend on the processing

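Every alternative kept the counts of called genes within 1.5 times the value reported. For ACBI against BD98 the count ran from 9912, with only those 6 libraries fitted, to 10987, with no filter on low counts, and DESeq2 called 10531. Leaving out each library in turn gave 10180 to 10498. The replicate block gave 10656 (5106 higher and 5550 lower), 10997 for ACBI against DMSO and 7388 for BD98 against DMSO. Without ribosomal RNA genes 10754 were called. Of 300 named genes called between the compounds, 281 were called under every alternative and 19 lost the call under at least 1 of up to 14; 5 others gained one. Among the 300 named genes called, RBL2 alone changed direction between the compounds, to -0.018 with library totals. The cause was not tested. The calls lost included ATF4 with library totals and PBRM1 without ACBI replicate 2 or BD98 replicate 2. With no filter 6 neuroendocrine markers were called, and without ACBI replicate 1 a single basal marker was. Limits are that 1 line, 1 time and 1 dose of each compound were read, that the doses differed, that the origin of replicates is not stated, and that RNA gives no level of protein or of cells. Library totals moved the median of all genes from -0.02 to -0.13 and ended calls of EPRS1 and KRT18 too, so small differences depend on the scaling. CHRM3 lost its call with library totals and under 8 alternatives in all (log2 fold change 0.462 to 0.916, adjusted p up to 0.258). List counts against DMSO were not recomputed.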

Other observations

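Lists not yet described also split by member. Of 24 p53 targets 7 were higher and 10 lower with ACBI than with BD98 (median 0.02). BTG2, an antiproliferative factor, was at 33.6, 31.9 and 32 CPM with ACBI, 108, 106 and 110.2 with BD98 and 60.8, 60.6 and 62.2 in DMSO (-1.74 ± 0.0475), in 3 separate bands, and the sestrin SESN1 followed the same order (-1.08 ± 0.0432). GDF15, a secreted stress cytokine, was at 1548, 1468 and 1326 CPM with ACBI against 907, 882 and 931 with BD98 (0.67 ± 0.0455), and FDXR (0.81 ± 0.0651) and TP53I3 (0.78 ± 0.0819) were higher as well. In the BCL2 family 4 of 15 were higher and 7 lower. The anti-apoptotic BCL2L2 (0.95 ± 0.0424) and BCL2L1 (0.56 ± 0.0365) were higher with ACBI and BCL2 (-1.20 ± 0.163), at 2.14, 1.39 and 1.86 against 3.95, 4.33 and 4.22 CPM, was lower. The pro-apoptotic BID (-1.76 ± 0.0935) and BCL2L11 (-0.65 ± 0.051) were lower with ACBI, and BAD (0.38 ± 0.0577) was higher.

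Stress and chromatin genes gave further differences. Of 17 heat shock genes 13 were lower with ACBI and 3 higher (median -0.41), among them HSPD1 (-0.86 ± 0.0371), a mitochondrial chaperonin, and HSP90AA1 (-0.72 ± 0.0351), while CHORDC1 was higher (1.32 ± 0.113). HSPA1A and HSPA1B differed in opposite directions (-1.85 and 0.63), but they are near-identical copies whose reads can be split, and HSPA1A lost its call under 9 of the alternatives (adjusted p up to 0.187). Of 19 NRF2 targets 11 were lower and 5 higher (median -0.34). The ferritin chain FTH1 was at 1090, 1059 and 990.2 CPM with ACBI against 1790, 1753 and 1898 with BD98 (-0.79 ± 0.0361), and the heme oxygenase HMOX1 at 27.4, 28.2 and 25.9 against 10.9, 10.2 and 11 (1.34 ± 0.0914). Of 18 polycomb genes 11 were higher with ACBI and 5 lower (median 0.26). The lower ones included EZH2 (-1.38 ± 0.0841), the histone methyltransferase, at 11.5, 13.3 and 12.9 CPM against 31.3, 30.8 and 35.4, and CBX2 (-1.67 ± 0.0579), and the higher ones EZH1 (0.70 ± 0.0596), its paralogue, and BMI1 (0.85 ± 0.0574). Among 19 outputs of TGF-beta and Hippo signalling 8 were higher and 7 lower: TGFB3 was at 3.77, 3.57 and 3.11 CPM with ACBI against 0.215, 0.228 and 0.167 with BD98 (4.10 ± 0.356), CCN1 at 20.1, 18.9 and 18.1 against 3.91, 4.84 and 3.92 (2.19 ± 0.117), and AJUBA was lower (-1.52 ± 0.0653). Ion channels and neurotransmitter receptors were higher in 9 and lower in 12 of 24, with the potassium channel KCNMA1 at 178, 173 and 169.5 CPM against 48.7, 42.7 and 45 (1.93 ± 0.0477) and the sodium channel subunit SCNN1G at 1.13, 1.44 and 1.04 against 3.6, 3.19 and 4.89 (-1.73 ± 0.179). Of 5 metallothioneins 3 were higher with ACBI and MT1G was lower (-0.98 ± 0.082). MT1X was at 47, 43.8 and 32.1 CPM with ACBI, 11.8, 10.9 and 9.95 with BD98 and 20.7, 19.9 and 22.5 in DMSO (1.92 ± 0.116); these genes too are close copies. Of 14 complement shields and surface antigens 5 were higher and 6 lower with ACBI.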
